A study of Mus musculus with 564 samples.

Results

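Cd40, Cd80, Cd86, Icosl, Cd274 and Pdcd1lg2 encode surface proteins through which macrophages and other antigen-presenting cells act on T cells. Their cis-regulatory elements (CREs) were taken as the regions of open chromatin in the deposited table whose centre lay within 25000 bp of a transcription start of 1 of these 6 genes in the RefSeq annotation of mm10. The rule found 41 of 59190 CREs: 10 for Cd86, 7 each for Cd40, Cd274 and Icosl, 6 for Cd80 and 4 for Pdcd1lg2. Each CRE is named here by the distance from the curated start of its gene to its centre, negative values lying upstream. For 4 CREs, Cd80 -25.8 kb and Cd86 +39.1 kb, +34.0 kb and +29.1 kb, the centre lay in the window of a predicted start only, and 9 CREs lay nearer to the start of another protein-coding gene (Ncoa5, Pla1a, Adprh, Plgrkt or Dnmt3l). Which gene a CRE acts on was not measured.

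H3K27ac, the acetylation of histone H3 that marks active enhancers and promoters, was profiled by ChIP-seq in bone marrow-derived macrophages (BMDMs) from wild type mice. All cells received 1 h of pre-treatment, either with DMSO as the vehicle or with a clinical kinase inhibitor (CKI, 58 in all), and were then left untreated (UT) or exposed to 10 ng/mL of LPS or of IL4 for 30 min, 1 h, 2 h or 4 h. The treatment labels of UT libraries with a CKI give 4 h untreated after the pre-treatment, but their titles give a different time. How long these UT cells were in the inhibitor is therefore not settled. LPS is the bacterial ligand of TLR4, and IL-4 is a type 2 cytokine. The 564 libraries comprised 18 with DMSO, 2 in each of 9 groups, and 546 with a CKI, mostly 1 for each inhibitor, stimulus and time. The inhibitors were used at differing concentrations. The labels do not say that replicates came from separate cultures or animals, so the p-values below measure the spread between these libraries, which may be technical. In a bulk measurement, fewer acetylated cells and less acetylation per cell cannot be told apart.

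T cells need, besides antigen, a costimulatory signal, which CD80 and CD86 deliver through CD28 and ICOSL delivers through ICOS. CD40 is the receptor through which T cells bearing CD40 ligand activate the antigen-presenting cell in turn. PD-L1, encoded by Cd274, and PD-L2, encoded by Pdcd1lg2, engage PD-1 and restrain the T cell. In macrophages LPS acts largely through NF-kB, AP-1 and interferon-dependent factors, while IL-4 acts through JAK kinases and STAT6, and PD-L2 is a classical product of IL-4-activated macrophages.

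The values are normalised read counts that the authors scaled between libraries and rounded, and they summed to 4066894 to 12391409 per library (5923684 to 6873668 with DMSO). Of 8 macrophage markers, 6 had a promoter CRE, with DMSO medians of 201.5 to 2072. None of 4 T cell and none of 4 B cell markers had one, and the dendritic cell, neutrophil and fibroblast markers that did (1, 2 and 1) had medians of 16.5, 9 and 9, and 5. The contrast of a library, the mean of its highest 10% of CREs over that of its lowest 10%, was 53.9 to 96.2 with DMSO and 6.73 to 69.1 with a CKI (median 21.8), and the DMSO and CKI libraries were therefore read apart for the time courses. The PH797804 library at 30 min of LPS stood apart with 21% of all CREs at 0, 3 of the 41 among them, and results that rest on it are given with and without it.

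The sequences below are from 6 CREs described in the results, with matches to 3 of the 5 motif patterns searched in capitals. They are the 250 bases before the RefSeq start of Pdcd1lg2 and the central 300 bases of 5 further CREs, on the plus strand of mm10. The Pdcd1lg2 window (chr19:29410669-29410918) lies in the CRE with the largest IL-4 difference of the 41. Cd40 -6.0 kb (chr2:165049527-165049826, intergenic) had the largest LPS difference. Cd40 +4.5 kb (chr2:165059979-165060278, in an intron, with 76.3% of the window in repeats) moved in opposite directions after the stimuli. Pdcd1lg2 +8.2 kb (chr19:29419003-29419302, intronic) and the weak Cd274 +9.1 kb (chr19:29376406-29376705) are from the PD-1 ligand genes, and Icosl +17.7 kb (chr10:78086883-78087182, intergenic) was the CRE called lower after IL-4.
Pdcd1lg2 promoter: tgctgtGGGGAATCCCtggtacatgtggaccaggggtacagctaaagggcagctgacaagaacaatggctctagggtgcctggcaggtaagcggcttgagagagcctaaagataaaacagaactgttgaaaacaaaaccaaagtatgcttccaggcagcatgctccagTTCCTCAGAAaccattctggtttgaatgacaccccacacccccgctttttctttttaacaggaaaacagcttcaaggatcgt
Cd40 -6.0 kb: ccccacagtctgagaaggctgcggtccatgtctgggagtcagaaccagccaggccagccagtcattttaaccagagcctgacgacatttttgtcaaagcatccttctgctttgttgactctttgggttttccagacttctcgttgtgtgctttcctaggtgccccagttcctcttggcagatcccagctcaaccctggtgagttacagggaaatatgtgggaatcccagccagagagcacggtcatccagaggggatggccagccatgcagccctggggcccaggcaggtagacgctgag
Cd40 +4.5 kb: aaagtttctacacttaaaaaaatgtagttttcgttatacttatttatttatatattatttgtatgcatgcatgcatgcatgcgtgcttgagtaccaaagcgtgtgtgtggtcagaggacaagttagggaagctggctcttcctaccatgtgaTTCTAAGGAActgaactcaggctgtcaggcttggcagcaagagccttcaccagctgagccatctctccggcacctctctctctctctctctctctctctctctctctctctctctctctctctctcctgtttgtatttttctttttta
Pdcd1lg2 +8.2 kb: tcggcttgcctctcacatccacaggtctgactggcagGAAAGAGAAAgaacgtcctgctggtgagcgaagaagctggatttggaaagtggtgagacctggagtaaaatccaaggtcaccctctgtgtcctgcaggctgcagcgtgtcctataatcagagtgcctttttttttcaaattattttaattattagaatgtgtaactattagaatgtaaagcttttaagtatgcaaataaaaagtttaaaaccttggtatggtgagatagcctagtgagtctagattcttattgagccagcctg
Cd274 +9.1 kb: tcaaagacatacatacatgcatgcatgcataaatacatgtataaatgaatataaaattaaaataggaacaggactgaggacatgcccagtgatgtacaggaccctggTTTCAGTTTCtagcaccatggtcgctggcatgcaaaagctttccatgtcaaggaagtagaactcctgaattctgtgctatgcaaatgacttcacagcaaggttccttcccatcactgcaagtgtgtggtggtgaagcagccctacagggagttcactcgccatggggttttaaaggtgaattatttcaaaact
Icosl +17.7 kb: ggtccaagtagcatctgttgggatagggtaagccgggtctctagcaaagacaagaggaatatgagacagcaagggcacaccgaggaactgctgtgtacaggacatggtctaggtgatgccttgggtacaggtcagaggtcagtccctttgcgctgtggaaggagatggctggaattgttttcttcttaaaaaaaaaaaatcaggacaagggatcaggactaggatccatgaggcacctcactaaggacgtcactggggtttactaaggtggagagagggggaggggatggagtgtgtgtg
In the Pdcd1lg2 promoter the capitals mark a match to the NF-kB consensus, the first in the window, and a match to the STAT6 spacing (TTC and GAA with 4 bases of any kind between them) nearer the start. The capitals in Cd40 +4.5 kb mark a second STAT6 match, and those in Pdcd1lg2 +8.2 kb and Cd274 +9.1 kb mark interferon-stimulated response elements (ISRE, a pair of GAAA with 2 bases of any kind between them, read on either strand). Cd40 -6.0 kb and Icosl +17.7 kb held no match to the 5 patterns searched on both strands: these 3, AP-1 TGANTCA and ETS GGAAGT. Matches to AP-1 and ETS are not capitalised, and Cd274 +9.1 kb also holds an ETS match. Over the central 300 bases, the STAT6 spacing was present in 3 of the 41 CREs and in 9.21% of all CREs, and the ISRE was present in 6 of 41 and in 5.13% of all CREs. Among the CREs of Cd274 and Pdcd1lg2, only Cd274 +9.1 kb and Pdcd1lg2 +8.2 kb held an ISRE match there. The NF-kB consensus was present in 2 of 41 against 5.98%, AP-1 in 5 of 41 against 20.2% and ETS in 8 of 41 against 37.3%. In windows of 250 bases before and 50 after 32851 RefSeq starts, the STAT6 spacing was present in 6.95% and the NF-kB consensus in 4.51%. A match is a description of the letters and does not show binding.

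The LPS course in vehicle-treated BMDMs asked how far each locus gains or loses acetylation over 4 h of TLR4 stimulation. Most CREs of the 6 genes were more acetylated after LPS, with the largest differences at Cd40 -6.0 kb (5.75 on the log2 scale), Cd40 -12.4 kb (3.42), Cd86 -3.7 kb (3.40) and Cd80 -25.8 kb (3.33). In limma's moderated F-test on log2(value + 5), where a call took a Benjamini-Hochberg adjusted p under 0.01 and a log2 difference of more than 1 either way at any time, 31 of 41 CREs were called. Of these, 28 were higher and 3 lower, against 53.5% of all 50697 CREs tested (29% higher and 24.5% lower). The largest difference from UT fell at 30 min for 3 of the called CREs, at 1 h for 8, at 2 h for 9 and at 4 h for 11, and the median of the largest log2 differences over the 41 was 1.39. After quantile normalisation 20 of 41 were called, 18 higher and 2 lower, against 34.6% of all CREs.

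After IL-4, 21 of 40 CREs tested were called, 20 higher and 1 lower, against 24.7% of all CREs (13.6% higher and 11% lower), and the median of the largest log2 differences was 1.13. The 4 CREs of Pdcd1lg2, 6 of 7 of Cd40 and 5 of 7 of Cd274 were higher, but only 2 of 6 of Cd80, 2 of 9 tested of Cd86 and 1 of 7 of Icosl. After quantile normalisation 14 were called, 13 higher and 1 lower, against 10.3% of all CREs. Both courses use the same UT libraries. The difference between the stimuli was therefore tested directly at matched times in all 18 DMSO libraries, which called 33 of 41 CREs (58.4% of all CREs), 22 higher after LPS and 11 higher after IL-4 (29.2% of all CREs each way), and 25 after quantile normalisation (38.2% of all CREs). All 4 Pdcd1lg2 CREs were higher after IL-4, and 6 of 7 Icosl CREs were higher after LPS.

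**Figure D1:**
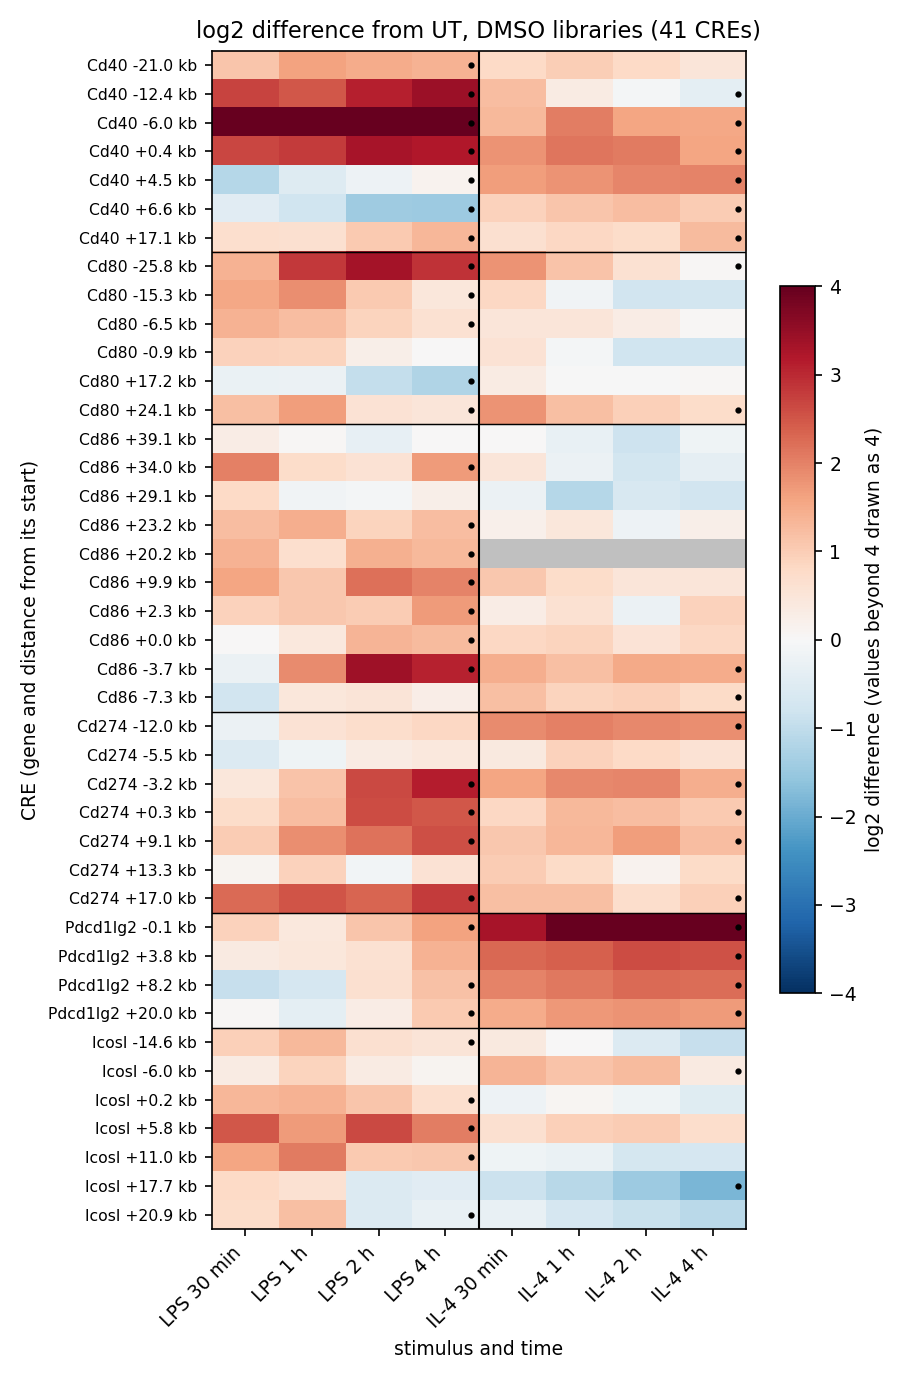
Heat map of the log2 difference from UT on the log2(value + 5) scale, clipped at 4, for the 41 CREs (rows, grouped by gene) at 4 times after LPS and after IL-4 (columns) in DMSO libraries, 2 per group. Dots at the right of each block mark called CREs, 31 after LPS and 21 after IL-4, and grey marks the CRE not tested in the IL-4 course.

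Of the 41 CREs, the largest LPS difference was at the Cd40 locus, where all 7 CREs were called after LPS, 5 higher and 2 lower. The CRE over its start, Cd40 +0.4 kb (chr2:165054333-165057778), held normalised counts of 98 and 80 in the 2 UT libraries. After LPS it held 576 and 603 at 30 min, 666 and 617 at 1 h, 902 and 928 at 2 h, and 917 and 818 at 4 h. After IL-4 it held 355 and 294, 432 and 385, 393 and 386, and 260 and 295 at the same times. Every stimulated library lay above both UT libraries, and every LPS library lay above every IL-4 library. The log2 difference from UT reached 3.30 ± 0.12 (SE, n = 2 per group) at 2 h of LPS (adjusted p = 1.2e-22, limma) and 2.14 ± 0.13 at 1 h of IL-4 (adjusted p = 4.93e-20, limma), and LPS exceeded IL-4 most at 4 h, by 1.63 ± 0.12. In the order of levels, the 2 h and 4 h LPS groups overlapped each other, as did the 1 h and 2 h IL-4 groups and the 30 min and 4 h IL-4 groups.

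The upstream CRE at -6.0 kb (chr2:165048810-165050542, intergenic) went from near 0 to a strong element. Its counts were 5 and 2 in UT, and 193 and 204, 276 and 264, 459 and 434, and 314 and 239 along the LPS course. After IL-4 it held 15 and 16, 22 and 40, 13 and 29, and 13 and 28. The LPS libraries were thus separated from all others by a wide margin, with a log2 difference of 5.75 ± 0.19 at 2 h (adjusted p = 2.45e-23, limma) on a scale where the low UT level makes the value depend on the pseudocount. The IL-4 difference of 2.06 ± 0.38 (adjusted p = 0.00012) was no longer called without UT replicate 2, and the direct LPS against IL-4 difference was 4.19 ± 0.28 at 2 h. Cd40 -12.4 kb had a mean of 30.5 ± 2.1 (SD, n = 2) in UT and 376 ± 52 at 4 h of LPS. After IL-4 it was called higher at 30 min (79.5 ± 9.2, log2 difference 1.25 ± 0.28, and 0.65 and not called after quantile normalisation) and held 23 ± 9.9 at 4 h.

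Within the gene, 2 CREs moved in opposite directions after the stimuli. Cd40 +6.6 kb (chr2:165061004-165063453, over a coding exon) held 175 and 171 in UT, and 114 and 136, 93 and 103, 67 and 55, and 67 and 54 along the LPS course. Along the IL-4 course it held 349 and 322, 378 and 375, 442 and 385, and 351 and 365. All LPS libraries lay below and all IL-4 libraries above UT, with log2 differences of -1.45 ± 0.21 at 4 h of LPS (adjusted p = 1.23e-07, limma) and 1.23 ± 0.11 at 2 h of IL-4 (adjusted p = 7.16e-13, limma), and a direct difference of -2.67 ± 0.16 at 2 h. The neighbouring Cd40 +4.5 kb, whose sequence is shown above, held 64 and 42 in UT, 18 and 24 at 30 min of LPS, and 212 and 229 at 4 h of IL-4. Its IL-4 difference was 1.98 ± 0.16 (adjusted p = 9.97e-16). Its early LPS difference, -1.14 ± 0.30 (adjusted p = 0.0021), was not called without UT replicate 1 or without LPS 30 min replicate 1. At 4 h of LPS it held 43 and 78, overlapping UT. Cd40 +17.1 kb, which begins in the gene and runs past its end, was called higher after both stimuli, with means of 20.5 ± 11 in UT, 57 ± 11 at 4 h of LPS and 53.5 ± 6.4 at 4 h of IL-4. Both calls were lost without UT replicate 2 (log2 0.90 and 0.82) and after quantile normalisation (0.71 and 0.68), and also without LPS 4 h replicate 1 or without either IL-4 4 h library.

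**Figure D2:**
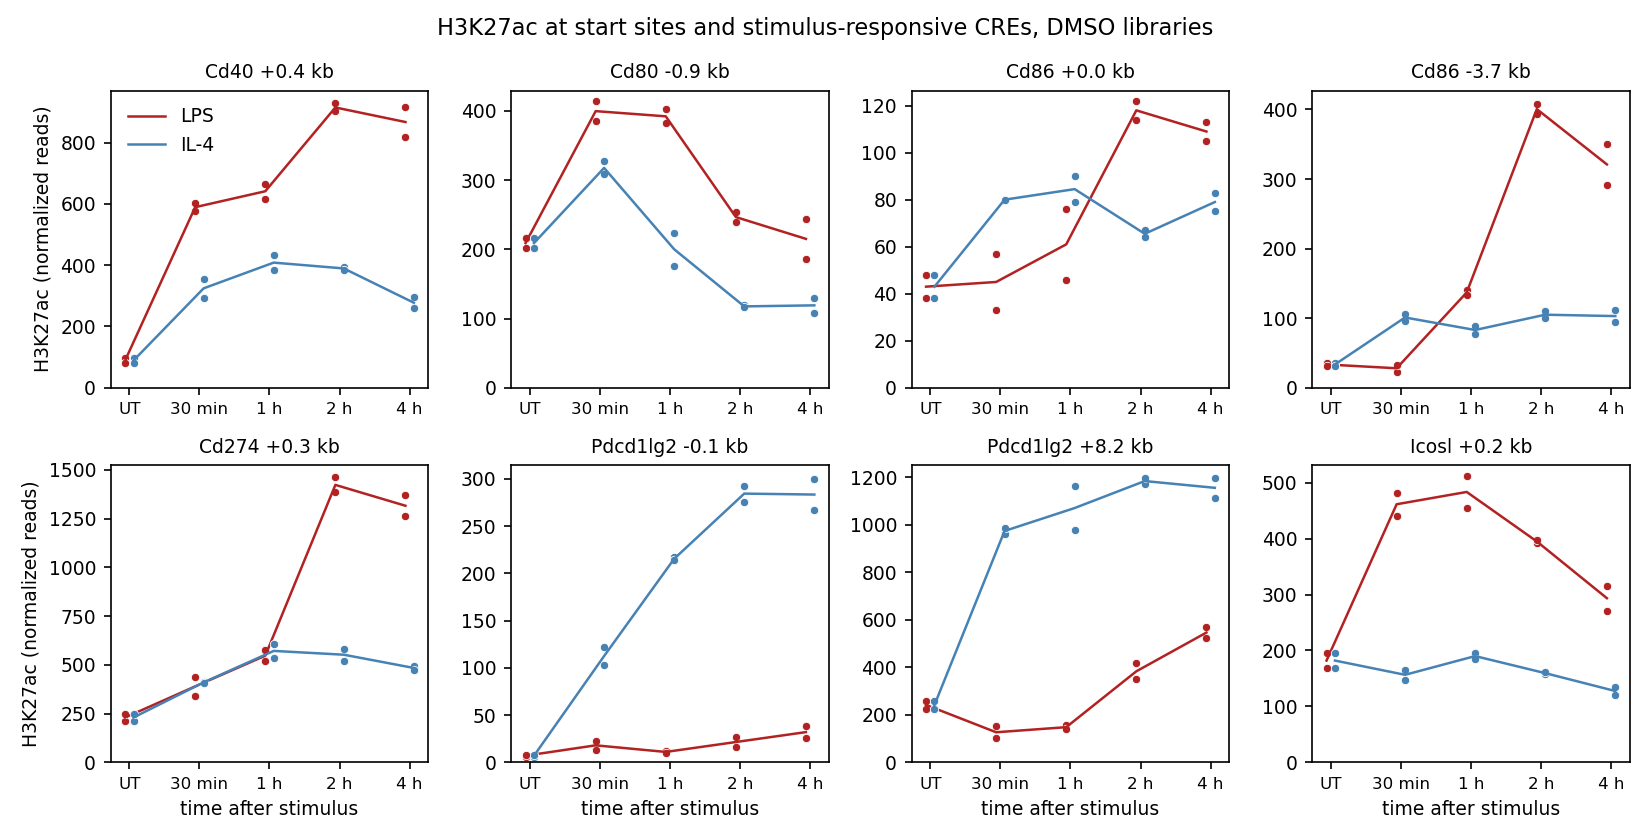
Normalised read count (y axis) against time after stimulation (x axis) at 8 CREs in DMSO libraries, with LPS in red and IL-4 in blue, the same UT libraries being drawn for both. Points are libraries and lines join the means of 2 replicates; Cd40 +0.4 kb and Cd274 +0.3 kb reach their highest levels after LPS, and both Pdcd1lg2 CREs after IL-4.

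The CD28 ligand genes differed from each other. At Cd80 -0.9 kb (chr16:38456489-38459676) the counts were 216 and 202 in UT, 414 and 385 at 30 min of LPS, 402 and 382 at 1 h, 254 and 239 at 2 h, and 244 and 186 at 4 h. With IL-4 they were 327 and 308 at 30 min, 176 and 224 at 1 h, 119 and 116 at 2 h, and 108 and 130 at 4 h. The 30 min libraries of both stimuli lay above UT, and the 2 h and 4 h IL-4 libraries lay below it. No difference from UT passed 1 on the log2 scale (0.92 ± 0.14 at 30 min of LPS and -0.80 ± 0.15 at 2 h of IL-4), so the CRE was called in neither course although its adjusted p was 5.09e-08 and 6.51e-12 (limma). The direct difference of 1.04 ± 0.15 at 2 h was called but was lost without LPS 2 h replicate 1 and after quantile normalisation.

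Of the other Cd80 CREs, Cd80 -25.8 kb (chr16:38432298-38434067) had the largest LPS difference, but it lies at the start of Pla1a, a phospholipase gene. It held 12 and 17 in UT, 36 and 58, 165 and 107, 185 and 193, and 125 and 155 along the LPS course, and 63 and 61, 28 and 51, 28 and 21, and 13 and 17 along the IL-4 course. LPS libraries from 1 h on exceeded all others, with a log2 difference of 3.33 ± 0.25 at 2 h (adjusted p = 3.25e-14, limma), while the IL-4 difference of 1.79 ± 0.31 at 30 min was 0.91 and not called after quantile normalisation. Cd80 +24.1 kb (chr16:38482231-38483805) was a weak element, with 11 and 2 in UT and at most 33 in any DMSO library. Its IL-4 difference of 1.81 ± 0.38 at 30 min and its LPS difference of 1.66 ± 0.41 were each lost without UT replicate 2, and the latter also without either LPS 1 h library. Cd80 +17.2 kb was the third CRE called lower after LPS, from 238 ± 7.1 in UT to 100 ± 8.5 at 4 h (log2 -1.21 ± 0.17, adjusted p = 1.53e-07, limma).

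Cd86 had a low start CRE and a strong, late upstream element. Cd86 +0.0 kb (chr16:36665279-36666887) held 48 and 38 in UT, then 33 and 57, 76 and 46, 122 and 114, and 113 and 105 after LPS, and 80 and 80, 90 and 79, 67 and 64, and 83 and 75 after IL-4. The LPS libraries overlapped UT at 30 min and lay above it by 2 h, with a log2 difference of 1.36 ± 0.26 (adjusted p = 3.56e-06, limma). The IL-4 libraries lay above UT at each time, but the difference of 0.90 ± 0.21 (adjusted p = 0.00129) did not pass the size threshold, and the direct comparison did not call the CRE.

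Cd86 -3.7 kb (chr16:36668913-36670630, intergenic) held 36 and 31 in UT, 23 and 33 at 30 min of LPS, 141 and 133 at 1 h, 408 and 393 at 2 h, and 351 and 291 at 4 h. With IL-4 it held 96 and 106, 89 and 77, 100 and 110, and 94 and 112. IL-4 raised it within 30 min to a plateau, whereas the 30 min LPS libraries overlapped UT and the later ones rose above every IL-4 library. The log2 differences from UT after LPS were -0.24, 1.89, 3.40 ± 0.20 and 3.08 (adjusted p = 3.35e-19, limma), and 1.52 ± 0.20 at 2 h of IL-4 (adjusted p = 5.58e-09, limma), the latter 0.99 and not called after quantile normalisation. The direct difference changed sign, from -1.70 at 30 min to 1.88 ± 0.19 at 2 h (adjusted p = 3.65e-16, limma). Of 10 Cd86 CREs, 7 were called higher after LPS and none lower, and Cd86 +39.1, +29.1 and -7.3 kb were not called. The calls at Cd86 +20.2 kb and +23.2 kb each depended on single UT libraries. After IL-4, Cd86 -7.3 kb was called higher, but that call was lost under 6 alternatives.

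At Icosl the LPS levels exceeded the IL-4 levels at 6 of 7 CREs, while IL-4 against UT was called at 2 of 7, with Icosl -6.0 kb higher and Icosl +17.7 kb lower. The IL-4 call at Icosl -6.0 kb was lost after quantile normalisation (log2 0.70), and its direct call was lost under 5 alternatives. Icosl +0.2 kb (chr10:78068433-78070662) held 169 and 195 in UT, 482 and 441 at 30 min of LPS, 455 and 512 at 1 h, 392 and 398 at 2 h, and 271 and 316 at 4 h. Along the IL-4 course it held 165 and 148, 195 and 185, 158 and 161, and 121 and 134. The LPS libraries all lay above UT and were highest in the first hour, while the 4 h IL-4 libraries lay below it. The log2 differences after LPS were 1.32, 1.39 ± 0.13, 1.10 and 0.67 (adjusted p = 3.64e-11, limma), and the IL-4 difference at 4 h, -0.50, was not called (adjusted p = 0.00932). LPS exceeded IL-4 by 1.53 ± 0.14 at 30 min (adjusted p = 5.68e-19, limma).

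Further into and beyond the Icosl gene, 2 CREs framed this pattern. Icosl +5.8 kb (chr10:78074317-78076008) had the largest LPS difference of the gene, from 12 and 8 in UT to 71 and 87 at 30 min, 51 and 36 at 1 h, 89 and 87 at 2 h, and 59 and 53 at 4 h. In the IL-4 course it held 21 and 16, 22 and 26, 22 and 28, and 13 and 27, below all LPS libraries (log2 difference from UT 2.65 ± 0.27 at 2 h of LPS, adjusted p = 3.47e-10, limma). Icosl +17.7 kb (chr10:78085963-78088102) held 260 and 241 in UT and 147 and 125, 114 and 111, 89 and 87, and 57 and 77 along the IL-4 course. These IL-4 libraries all lay below UT, with log2 -1.84 ± 0.17 at 4 h (adjusted p = 7.28e-12, limma), and the CRE was the only 1 of the 40 called lower after IL-4. After LPS its counts were 419 and 466, 391 and 384, 189 and 150, and 211 and 153, above UT in the first hour (log2 0.81) and below it later (-0.56 at 2 h), without passing the size threshold.

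The PD-1 ligand genes, which neighbour each other on chromosome 19, diverged between the stimuli. The CRE over the curated Cd274 start, Cd274 +0.3 kb (chr19:29365654-29369890), held 210 and 250 in UT, 340 and 439 at 30 min of LPS, 575 and 519 at 1 h, 1462 and 1384 at 2 h, and 1262 and 1370 at 4 h. With IL-4 it held 413 and 407, 607 and 536, 521 and 583, and 495 and 473. All stimulated libraries exceeded UT, the stimuli overlapped in the first hour, and at 2 h and 4 h every LPS library held more than any IL-4 library. The log2 differences from UT were 0.74, 1.24, 2.61 ± 0.12 and 2.49 for LPS (adjusted p = 1.57e-20, limma) and 1.30 ± 0.11 at 1 h of IL-4 (adjusted p = 5.53e-15, limma). LPS against IL-4 gave -0.08 and -0.06 in the first hour and 1.36 and 1.43 ± 0.11 at 2 h and 4 h.

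By the rule used for the other genes, the promoter CRE of Cd274 is Cd274 -5.5 kb, which lies over an upstream start and 32 bp from the start of Plgrkt, a plasminogen receptor gene, and Cd274 +0.3 kb was chosen after its values were seen. Cd274 -5.5 kb (chr19:29361034-29362772) held 102 and 83 in UT, 61 and 63, 81 and 82, 118 and 114, and 144 and 107 after LPS, and 127 and 120, 198 and 164, 162 and 162, and 133 and 144 after IL-4. It was called in neither course (largest log2 0.93 ± 0.16 after IL-4). Cd274 -3.2 kb (chr19:29363461-29365070) gained from 10 and 4 in UT to 13 and 9, 21 and 20, 73 and 62, and 94 and 99 after LPS (log2 3.13 ± 0.32 at 4 h, adjusted p = 5.37e-11, limma), and held 34 and 26, 42 and 36, 38 and 42, and 32 and 22 after IL-4. It was thus ahead with IL-4 early and with LPS late.

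Cd274 -12.0 kb (chr19:29354299-29356529, in a Plgrkt intron) was the Cd274 CRE with the largest IL-4 difference, from 16 and 24 in UT to 90 and 82, 96 and 95, 83 and 93, and 93 and 78. Its log2 difference was 2.03 ± 0.22 at 1 h (adjusted p = 1.59e-11, limma). After LPS it held 10 and 24, 38 and 26, 32 and 38, and 41 and 36, below all IL-4 libraries, and was not called. Downstream, Cd274 +9.1 kb, whose sequence is shown above, was weak, with 3 and 4 in UT and at most 54 in any DMSO library. It was called higher after both stimuli and higher after LPS than after IL-4. The IL-4 call was lost with a pseudocount of 20 or without either UT library, and the direct call under 6 alternatives. Cd274 +17.0 kb (chr19:29382848-29385964) held 46 and 44 in UT and up to 379 and 308 at 4 h of LPS (log2 2.79 ± 0.16). After IL-4 it held at most 131 (log2 1.21, and 0.76 and not called after quantile normalisation). LPS and IL-4 thus raised partly different CREs around the same gene.

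Pdcd1lg2 had the largest IL-4 differences of the 6 genes. Its promoter CRE, Pdcd1lg2 -0.1 kb (chr19:29410037-29411675), whose sequence is shown above, was nearly unmarked in UT, with 6 and 8. IL-4 brought it to 103 and 122 at 30 min, 217 and 214 at 1 h, 276 and 293 at 2 h, and 300 and 267 at 4 h. With LPS it held 23 and 13, 12 and 10, 16 and 27, and 38 and 26. The IL-4 libraries exceeded every LPS and UT library from 30 min on. The log2 differences after IL-4 were 3.29, 4.20, 4.60 ± 0.17 and 4.59 (adjusted p = 1.77e-28, limma), and LPS against IL-4 reached -3.79 ± 0.26 at 1 h (adjusted p = 1.55e-22, limma). The LPS difference of 1.61 ± 0.37 at 4 h (adjusted p = 0.00253) was not called without UT replicate 1 or without LPS 4 h replicate 1.

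Pdcd1lg2 +8.2 kb (chr19:29417290-29421014, in an intron), with an ISRE match in its centre, was already marked in UT, at 258 and 225. With IL-4 it held 962 and 985, 977 and 1163, 1171 and 1196, and 1196 and 1114. With LPS it held 102 and 151 and then 156 and 140, below UT, and 416 and 350 and then 522 and 570, above UT. The LPS log2 differences of -0.93, -0.69, 0.65 and 1.16 ± 0.16 (adjusted p = 7.67e-14, limma) changed sign between 1 h and 2 h, and the last was 0.90 and not called after quantile normalisation. The IL-4 difference was 2.27 ± 0.09 (adjusted p = 3e-28, limma), and LPS against IL-4 was -2.92 ± 0.13 at 30 min (adjusted p = 6.03e-28, limma). The remaining pair, Pdcd1lg2 +3.8 kb and +20 kb, gained 2.60 ± 0.23 and 1.81 ± 0.11 after IL-4. All 4 CREs had their largest IL-4 difference at 2 h, although the 2 h and 4 h IL-4 libraries overlapped at each. The 3 called after LPS had theirs at 4 h. The call at Pdcd1lg2 +20 kb after LPS (1.03 ± 0.17) was also lost without UT replicate 1 or LPS 4 h replicate 1.

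Other costimulatory and coinhibitory ligand genes gave a frame for these values. The 15 genes (Cd276, Vtcn1, Vsir, Tnfsf4, Tnfsf8, Tnfsf9, Tnfsf14, Tnfsf15, Tnfsf18, Cd70, Icam1, Cd48, Lgals9, Pvr and Nectin2) had 79 CREs by the same rule. After LPS 54 of 76 tested were called, 39 higher and 15 lower, and after IL-4 19 of 68, 4 higher and 15 lower, where 53.5% and 24.7% of all CREs were called. At promoter CREs the largest LPS differences were at Cd70, the CD27 ligand (2.16 ± 0.35, with means of 5 in UT and 39 at 1 h), at Pvr, a ligand of TIGIT and CD226 (2.02 ± 0.13, 133 and 556), and at Tnfsf15, the TL1A gene (1.92 ± 0.18, 61.5 and 246.5). Lower after LPS were Tnfsf14, which encodes LIGHT (-1.93 ± 0.22, 216.5 and 55.5), and Vsir, the VISTA gene (-1.90 ± 0.15, 503.5 and 131.5). No promoter CRE among the 5 largest IL-4 differences was called (Vsir -0.97, Tnfsf18 -0.94, Lgals9 -0.54, Tnfsf8 -0.54 and Pvr 0.48). Directly compared, Cd70 (2.44 ± 0.43) and Lgals9, the galectin-9 gene (2.32 ± 0.16), were furthest above IL-4 after LPS.

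The promoters most like each gene in their 9 DMSO group means were found by Pearson's r, given as a description since the groups share a UT level and a time axis. They were taken from 5551 promoter CREs with a range of at least 1 in log2, leaving out those on the chromosome of the gene. Cd40 +0.4 kb was most like Cycs (r = 0.974), Nfkb1 (0.962) and Lrch3 (0.961), and Cd274 +0.3 kb most like Scarf1 (0.985), Oas1g (0.977) and Bst2 (0.971). Pdcd1lg2 -0.1 kb was most like Tpd52 (0.983), Wdr86 (0.981) and Kcnj4 (0.979), and Icosl +0.2 kb most like Gna13 (0.987), Slc39a1 (0.985) and Gtdc1 (0.985). For Cd80 -0.9 kb they were Rnf183 (0.953), Elmo1 (0.943) and Lilr4b (0.942), for Cd86 +0.0 kb Irf7 (0.942), Ccdc86 (0.934) and Misp (0.931), and for Cd274 -5.5 kb Pex26 (0.982), Eno1 (0.981) and Eid2b (0.963).

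The libraries with a CKI, which none of the tests above used, were then examined for the same responses, each inhibitor against its own UT library. With compound and time as factors, 16 of 41 CREs were called after LPS, all higher (28.9% of all CREs, 15.4% higher), and 12 of 41 after IL-4, 11 higher and Icosl +17.7 kb lower (8.84%, 5.33% higher and 3.5% lower). Without the shallow PH797804 library the LPS count was again 16. The fitted differences were smaller than with DMSO at the CREs that led there: 3.42 ± 0.08 against 5.75 at Cd40 -6.0 kb, 2.19 ± 0.05 against 3.30 at Cd40 +0.4 kb, and 3.06 against 4.60 at Pdcd1lg2 -0.1 kb after IL-4. The lower contrast of these libraries moved with this difference, and the part of contrast and of inhibition in it cannot be told apart.

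Taken 1 inhibitor at a time, 2 Cd40 CREs after LPS and the 4 Pdcd1lg2 CREs after IL-4 kept the same direction in every inhibitor at each time. Cd40 +0.4 kb and Cd40 -6.0 kb were higher after LPS than in the UT library of the same inhibitor in 58 of 58 inhibitors at 30 min, 57 of 57 at 1 h, 55 of 55 at 2 h and 55 of 55 at 4 h. At Cd40 +0.4 kb the CKI libraries held 90 to 245 (median 158) in UT and 356 to 1369 (median 715) at 2 h of LPS, without overlap. After IL-4 the 4 Pdcd1lg2 CREs were higher in 58 of 58, 58 of 58, 56 of 56 and 55 of 55. At Pdcd1lg2 -0.1 kb the CKI libraries held 8 to 56 (median 22) in UT and 121 to 339 (median 237.5) at 2 h of IL-4, again without overlap. Over all CREs the share higher was 48.6% to 54.5% at any of these times.

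Responses that changed sign over time or between the stimuli in DMSO did so in most inhibitors as well. Pdcd1lg2 +8.2 kb was higher after LPS in 4 of 58 inhibitors at 30 min and 6 of 57 at 1 h, but in 46 of 55 at 2 h and at 4 h, with medians of -0.59, -0.49, 0.52 and 0.89. Neither it nor Icosl +17.7 kb was called in the LPS response of the inhibitor libraries. Cd40 +6.6 kb was higher after LPS in 6 of 58, 4 of 57, 6 of 55 and 1 of 55 inhibitors and after IL-4 in 56 of 58, 58 of 58, 56 of 56 and 55 of 55, although its LPS difference of -0.84 ± 0.06 did not pass the size threshold. Icosl +17.7 kb was higher after LPS in 50 of 58 and 48 of 57 in the first hour and in 4 of 55 and 3 of 55 later, and after IL-4 in 1 of 58, 2 of 58, 1 of 56 and 1 of 55. Afatinib, an ERBB inhibitor, was the inhibitor with the highest IL-4 difference there at each time. Its UT library held 74 at this CRE, the lowest of the 73 CKI UT libraries (median 256), while its IL-4 libraries held 95, 131, 97 and 104. The same UT library held 53 at Pdcd1lg2 -0.1 kb, and Afatinib had the smallest IL-4 difference there at each time (0.41, 1.14, 1.29 and 1.19).

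**Figure D3:**
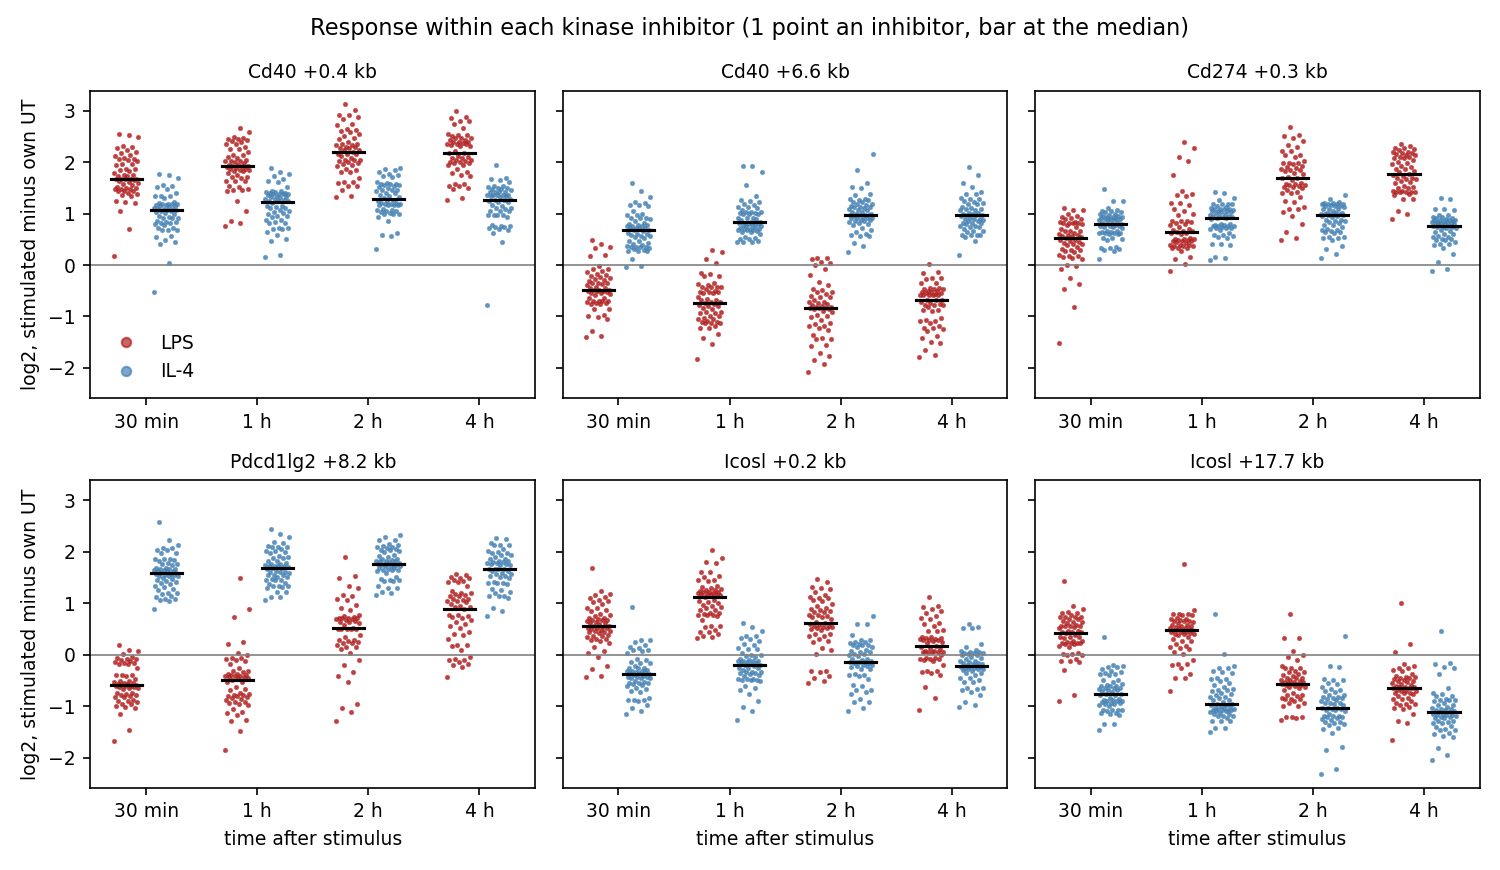
Log2 difference between each inhibitor's stimulated library and its own UT library (y axis) at 4 times after LPS and IL-4 (x axis), for 6 CREs; points are inhibitors and bars are medians. All inhibitors lie above 0 at Cd40 +0.4 kb after LPS, and Pdcd1lg2 +8.2 kb moves from a median of -0.59 to 0.89 after LPS.

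At other CREs the LPS response was less uniform. The Cd86 start CRE, Cd86 +0.0 kb, was higher in 38 of 58, 43 of 57, 48 of 55 and 47 of 55 inhibitors. The intergenic Cd86 -3.7 kb was higher in 30 of 58 inhibitors at 30 min but 57 of 57, 54 of 55 and 55 of 55 later. Cd274 +0.3 kb was higher in 50 of 58, 56 of 57, 55 of 55 and 55 of 55, with medians of 0.53, 0.65, 1.69 and 1.76. Icosl +0.2 kb was higher in 53 of 58, 57 of 57, 48 of 55 and 38 of 55, with medians of 0.56, 1.12, 0.61 and 0.17, and Cd80 -0.9 kb in 56 of 58, 54 of 57, 38 of 55 and 23 of 55, with medians of 0.65, 0.58, 0.26 and -0.024. The medians of both were thus largest in the first hour.

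Levels under each inhibitor were compared with DMSO over the UT and stimulated libraries of a course, averaged over times. Of 2378 pairs of CRE and inhibitor in the LPS course, 672 (28.3%) were called (adjusted p under 0.05 and more than 0.5 on the log2 scale in either direction), 592 higher and 80 lower, against 36.4% over all CREs. In the IL-4 course 901 pairs (37.9%) were called, 877 higher and 24 lower, against 39.2%. With the mean of all inhibitors as the reference, 67 pairs (19 higher and 48 lower, 2.81% over all CREs) and 91 pairs (55 and 36, 3.93%) were called, and after quantile normalisation 99 (64 and 35, 4.59%) and 135 (99 and 36, 6.57%). The median difference over all CREs and inhibitors was 0.39 and 0.41 in the 2 courses and 0.28 and 0.40 over the pairs of the 41 CREs, and quantile normalisation brought the latter to 0.04 and 0.05. CREs low in DMSO tended to lie above DMSO with most inhibitors, whereas the strong CREs lay nearer to it or below. Cd40 +0.4 kb, for example, was above DMSO with 27 of 58 inhibitors in the LPS course (median -0.0056) and with 46 of 58 in the IL-4 course (median 0.23). Cd40 +17.1 kb, which spans 8661 bp from within the gene to beyond its end and held 13 to 65 in the DMSO LPS course, was above DMSO with 58 of 58 inhibitors (53 called, median 1.59, and 44 called after quantile normalisation). Cd274 +0.3 kb was below DMSO with 58 of 58 in the LPS course (32 called, median -0.53, and 2 called after quantile normalisation), and Pdcd1lg2 +8.2 kb with 58 of 58 in the IL-4 course (13 called, median -0.40). Contrast also differed between DMSO and CKI libraries, and its part in these differences was not tested.

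**Figure D4:**
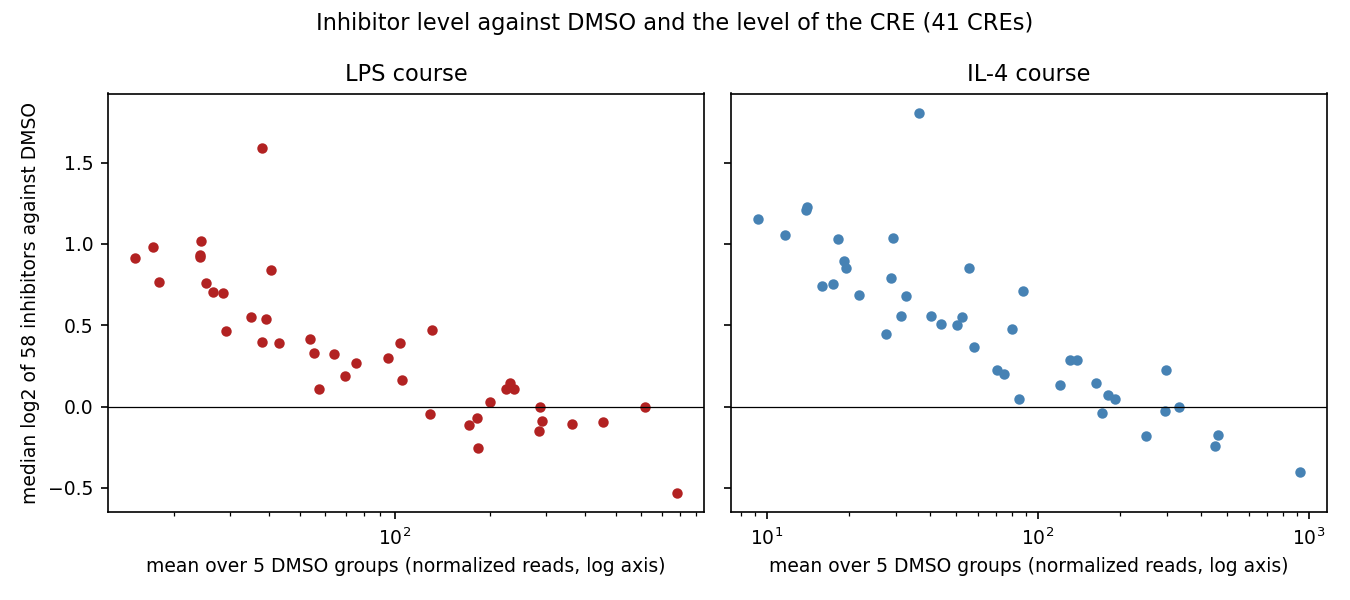
Median log2 difference from DMSO over 58 inhibitors (y axis) against the mean normalised count over 5 DMSO groups (x axis, log scale) for the 41 CREs in the LPS and IL-4 courses. Low CREs such as Cd40 +17.1 kb (1.59 in the LPS course) lie above 0, and Cd274 +0.3 kb (-0.53) lies below.

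Differences between inhibitors were therefore read against the mean of all inhibitors, and within the 6 runs of 8 to 10 inhibitors that follow each other in the columns of the table and share no compound. At Icosl +0.2 kb in the LPS course, UT libraries included, the lowest levels were with PF04691502 (-0.75 ± 0.13), Omipalisib (-0.74 ± 0.13) and AZD8186 (-0.57 ± 0.13). These are inhibitors of PI3K and mTOR or of PI3K. In all, 5 inhibitors were called lower, OSI930 (-0.52 ± 0.13) and MK2206 being the others. Levels at this CRE moved with the median contrast of an inhibitor's libraries across the 58 inhibitors (r = 0.524, a description): Omipalisib had the lowest contrast of the 58 (9.98), AZD8186 ranked 54th from the highest (14.1) and PF04691502 ranked 29th (22.4), and the part of contrast in these levels was not tested. Omipalisib libraries held 169 in UT and 174, 291, 113 and 154 along the LPS course, and PF04691502 libraries held 128 and then 197, 401, 242 and 58. AZD8186 libraries held 202 and then 166, 356, 147 and 159. The medians of all CKI libraries were 230 in UT and 322, 433, 344 and 253, so all 3 inhibitors lay below the median at every LPS time. Within runs, over the LPS libraries, Omipalisib was the lowest of 10 (-0.62 from the mean of the others), AZD8186 the second of the same run (-0.45), PF04691502 the lowest of its run (-0.44) with the AKT inhibitor MK2206 next (-0.43), and BGT226 the lowest of its run (-0.33). AZD2014 (-0.14), TG100115 (0.07) and Apitolisib (0.01), a PI3K and mTOR inhibitor that the study used against JAK1, lay nearer to the others of their runs. The duplicate TG100115 libraries at 30 min of LPS differed, with 519 and 142. Its later LPS libraries held 289, 272 and 198, below the medians of all CKI libraries. The run medians at this CRE ranged from -0.33, in the run of TG100115 and PF04691502, to 0.32.

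The MEK inhibitors were at the upper end. Selumetinib, whose libraries had the highest median contrast of the 58, had the highest level at Icosl +0.2 kb in the LPS course (0.40, not called). Within their runs Pimasertib (0.40) and Selumetinib (0.30) were highest. Selumetinib libraries held 219 in UT and 376, 606, 477 and 358 along the LPS course. At Cd40 +0.4 kb in the LPS course the highest were Selumetinib (0.60), ONO4059analogue (0.55) and Refametinib (0.53), and the lowest Omipalisib (-0.60), X396 (-0.55) and Vatalanib (-0.54). Selumetinib libraries held 153 in UT and 779, 991, 1369 and 1247 after LPS, and Omipalisib libraries 90 and then 406, 358, 462 and 508. Within runs the high values stayed above the mean of the others (Selumetinib 0.38, ONO4059analogue 0.31, Pimasertib 0.31 and Refametinib 0.25). Omipalisib (-0.09), X396 (-0.15) and Vatalanib (-0.01) were near the others of their runs. Selumetinib, ONO4059analogue and Refametinib share a run (median 0.55, highest 0.75) with PH797804. The level of PH797804 here was -0.51, and -0.27 without its shallow library, which lowers the mean of the others. The within-run values without that library were not computed. Levels at this CRE moved with library contrast across the 58 inhibitors (r = 0.743), which was 44.05, 42.2 and 40.1 in the median library of the 3 highest.

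**Figure D5:**
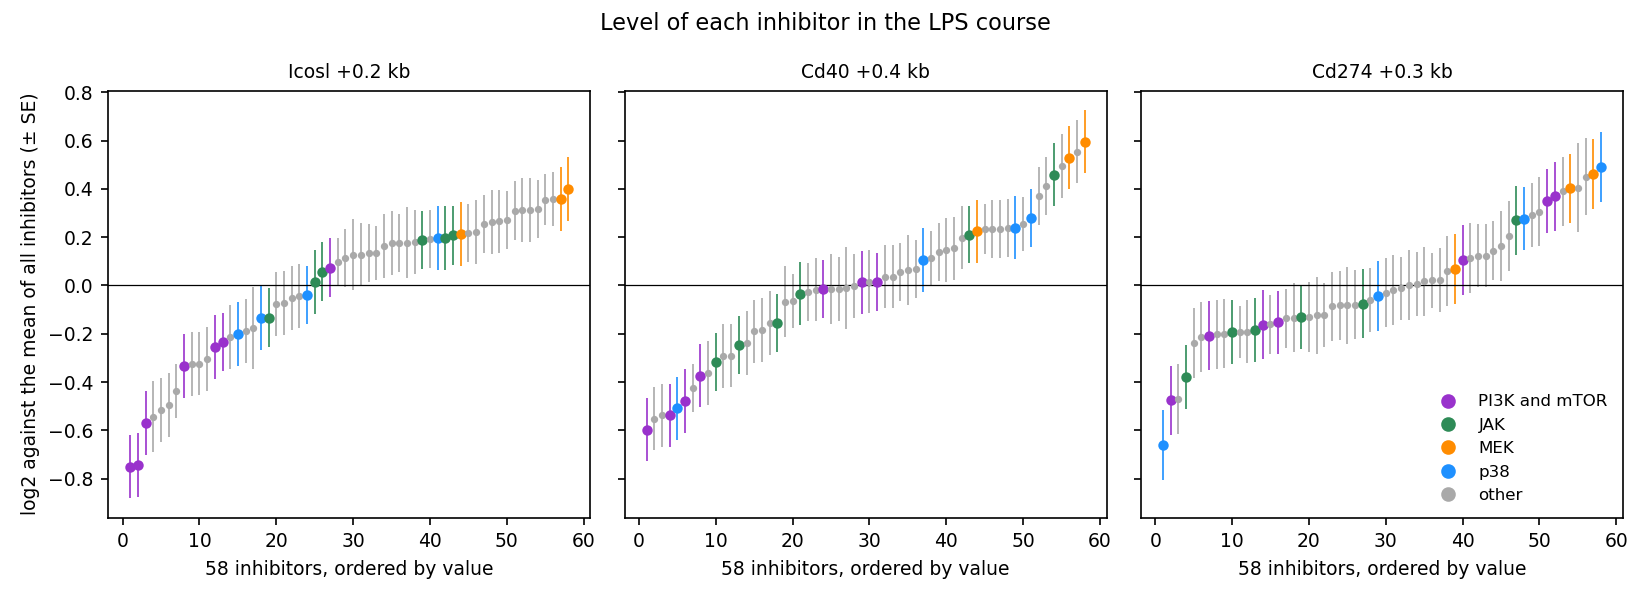
Log2 difference from the mean of all inhibitors in the LPS course (y axis, ± SE) for 58 inhibitors ordered by this value (x axis), at Icosl +0.2 kb, Cd40 +0.4 kb and Cd274 +0.3 kb, coloured by family. PF04691502 and Omipalisib are lowest at Icosl +0.2 kb (-0.75 and -0.74) and Selumetinib is highest at Cd40 +0.4 kb (0.60).

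Tested as families over inhibitors, with run as a factor, no CRE of the 6 genes was called for JAK (6 inhibitors), MEK (3), p38 (4) or PI3K and mTOR (7) inhibitors in either course, against at most 0.194% of all CREs (PI3K and mTOR inhibitors after IL-4, and 0.127% after LPS; 0.00169% for MEK inhibitors after IL-4). At an unadjusted p under 0.05 (limma) 3, 7, 5 and 6 of the 41 CREs passed in the LPS course and 2, 1, 0 and 4 in the IL-4 course, in the same order of families. The smallest adjusted p with run as a factor was at Icosl +0.2 kb for PI3K and mTOR inhibitors after LPS (-0.31 ± 0.08, adjusted p = 0.0900, limma). In the levels above, which include UT libraries and no run factor, 6 of 7 lay below the mean of all inhibitors there. Without the run factor the family difference was -0.51 ± 0.11 (adjusted p = 0.0155, limma, with 2.57% of all CREs called), after quantile normalisation -0.28 (0.0463, with 0.509% of all CREs called), and relative to the UT libraries of the same inhibitors -0.15 (0.634). For MEK inhibitors after LPS the differences were 0.34 ± 0.13 at Cd40 +0.4 kb (adjusted p = 0.261, limma) and 0.31 ± 0.13 at Icosl +0.2 kb (0.265). In the levels that include UT libraries, 3 of 3 lay above the mean at both CREs. For p38 inhibitors after LPS, Pdcd1lg2 +20 kb gave -0.41 ± 0.12 (adjusted p = 0.165, limma), and it was called with the 2 h and 4 h libraries alone (-0.50 ± 0.15, adjusted p = 0.0461, with 3.98% of all CREs called). Without the shallow PH797804 library the difference there was -0.27 ± 0.11 (adjusted p = 0.133, limma).

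JAK inhibitors, which act on the kinases next to the IL-4 receptor, were not called as a family at the IL-4-induced Pdcd1lg2 promoter. Their levels at Pdcd1lg2 -0.1 kb in the IL-4 course, UT libraries included, ran from -0.27 (Tofacitinib) to 0.18 (Pacritinib) against the mean of all inhibitors. The family difference, over the IL-4 libraries only, was -0.16 ± 0.08 (adjusted p = 1.00, limma). Ruxolitinib libraries held 37 and 17 in UT and 118, 140, 231 and 243 along the IL-4 course, and Tofacitinib libraries 13 and then 63, 173, 255 and 240. Filgotinib libraries held 20 and 46 in UT and then 114, 103, 176 and 128, and Pacritinib libraries 23 and then 136, 247, 198 and 319. The medians of all CKI libraries were 22 in UT and 121.5, 185, 237.5 and 230. At Cd274 +0.3 kb the family difference after IL-4 was also -0.16 ± 0.06 (adjusted p = 0.926). No single inhibitor was called at Pdcd1lg2 -0.1 kb in the IL-4 course against the mean, with a range of -0.34 (Afatinib) to 0.48 (Talmapimod).

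Among the remaining start CREs, Cd86 +0.0 kb separated AMG208, a MET inhibitor, at the low end of the LPS course (-1.004 ± 0.20, and -0.75 within its run), with 49 in UT and 60, 22, 24 and 39 after LPS. Afatinib followed (-0.77, and -0.31 within its run), and its duplicate libraries held 21 and 17 at 30 min, 23 and 29 at 1 h, 114 and 80 at 2 h, and 118 and 59 at 4 h. In the IL-4 course Afatinib, MK2206 and MK2461 were lowest there (-0.63, -0.65 and -0.65) and Silmitasertib highest (0.50). Cd274 +0.3 kb was called lower in the LPS course with the p38 inhibitor PH797804 alone (-0.66 ± 0.14), whose libraries held 71, 274, 649 and 570. Without its shallow 30 min library the difference was -0.31 ± 0.15 and was not called (adjusted p = 0.101, limma). Its calls at Cd40 +0.4 kb, Cd274 -5.5 kb and Pdcd1lg2 +20 kb were lost likewise, while those at Cd274 +17.0 kb (-0.62 ± 0.18, adjusted p = 0.00764, limma) and, higher, at Cd40 +17.1 kb (0.95 ± 0.24, adjusted p = 0.00439, limma) remained. Without the library, higher levels were also called at Cd86 +23.2 kb (0.80 ± 0.28) and Cd274 -12.0 kb (0.83 ± 0.25).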

How the data were processed

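H3K27ac ChIP-seq of wild type mouse BMDMs (antibody ab4729, single reads) was carried out by the authors, who removed adapters, trimmed reads, mapped them to mm10 with ShortStack, counted reads around ATAC-seq peaks with GenomicRanges and GenomicAlignments, and scaled each library on peaks that did not vary; Bowtie and SAMtools are named in the submitters' processing notes, and versions are not given in the sources used here. The deposited table holds a score per CRE and library, a scaled count that the authors rounded to whole numbers, so no count model was used. In 14 DMSO libraries at least 99.1% of the values tested lay on whole multiples of 1.14 to 1.97 units, which corresponds to 3269729 to 5408907 reads in CREs.

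Groups came from the treatment labels, and no column was left unused. limma 3.58.1 (R 4.3.3) was fitted to log2(value + 5) over all CREs with a mean of at least 10 in the libraries of a fit, with empirical Bayes moderation with a trend, and fold differences are on that scale. Time courses were fitted on DMSO libraries (group as factor) and on CKI libraries (compound and time), levels on UT and stimulated libraries of a course (compound and time), and families on 1 value per inhibitor with the run of columns as a factor. p-values were adjusted by Benjamini-Hochberg over all CREs tested, within an inhibitor or a family where these were compared. The tests were run on simulated data with 200 changed CREs, for both DMSO time courses and for the inhibitor level and JAK family fits on UT and LPS libraries. Changed CREs were drawn from the stronger ones only, so weak CREs were not covered. The outcome is not given here. Named were the promoter CRE of each gene (nearest a start, within 1000 bp), the called CRE with the largest difference per gene and stimulus, the 3 highest and lowest inhibitors at described CREs, members of 4 families, the 5 related genes with the largest promoter difference and the 3 most similar promoters. For inhibitors, the text gives these at the CREs where it compares inhibitors. The genes, lists and comparisons were chosen with earlier results of these data known. Sequences and annotation are from RefSeq and the mm10 genome, read with pysam 0.24.0, and promoter windows of Cd40 and Cd86 were not used here. Alternatives were other pseudocounts, no filter, quantile normalisation, a replicate block, all DMSO libraries, leaving out libraries, other references, and family fits without run. One alternative, leaving out the shallow PH797804 library, was chosen after seeing the data.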

Additional observations from a re-analysis of the deposited data

Results flagged for a closer look

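Among 42 groups of 4 to 10 inhibitors of a family at described CREs, 2 held an inhibitor whose distance from the others was large for the range of the group; chance gives about 1 in 20. Both were PH797804 among the 4 p38 inhibitors in the LPS course, at -0.37 from the mean of all inhibitors at Cd80 -0.9 kb and at -0.53 at Cd274 -5.5 kb. Its 30 min LPS library, with 21% of all CREs at 0, enters both values, and without it they were -0.02 and -0.25.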

How the results depend on the processing

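The 31 LPS calls were 26 to 32 when single DMSO libraries were left out, the 21 IL-4 calls 17 to 23, and the 33 calls between the stimuli 32 to 34. For the 672 and 901 inhibitor pairs, all DMSO libraries of replicate 1, or all of replicate 2, were left out together. The pairs were then 457 to 479 and 717 to 778. After quantile normalisation 20 CREs were called in the LPS course, 14 in the IL-4 course and 25 between the stimuli. With a pseudocount of 20, 7 were called in the IL-4 response of the inhibitor libraries against 12. Pairs of CRE and inhibitor called were 67 (LPS) and 91 (IL-4) against the mean of all inhibitors, and 99 and 135 after quantile normalisation. Family calls in the LPS course were 1 instead of 0 without the run factor, 1 with only the 2 h and 4 h libraries, and 1 after quantile normalisation. These alternatives differ in more than 1 respect from each other, and the cause was not tested. The IL-4 difference at Cd86 +23.2 kb, not called, at 1 h ranged from -0.078 without DMSO UT replicate 1, where it turned direction, to 0.99 without replicate 2. Among single CREs, 2558 values under an alternative kept their direction and side of the threshold, 102 lost it and 29 gained it. Replicate numbers did not pair the DMSO libraries: of 36 group pairs, correlations of deviations ran from -0.087 to 0.066. A replicate block left all 3 counts, 31, 21 and 33, as they were and changed none of 122 CRE results. The median over all CREs at 1 h of LPS was 0.09, and -0.04 after quantile normalisation. Low CREs, such as Cd80 +24.1 kb, are limited by their few counts.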
